A study of Rattus norvegicus with 18 samples.

Results

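Ndn, the gene for necdin, and a panel of imprinted growth regulators were followed in rat fibroblasts with and without human MYC and after knockdown of the aryl hydrocarbon receptor (AHR). Of 10 listed symbols, 8 were in the deposited table of 13188 genes: Ndn, Igf2, Grb10, Igf2r, Peg3, Mest, Cdkn1c and Sgce. Plagl1 and Dlk1 were not analysed here. Ndn was picked for its large fall with MYC, so its MYC values below were used to choose it and are given as a description with no test. The other 7 were picked as imprinted genes.

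Imprinted genes are expressed mainly from the copy inherited from 1 parent, and many of them set the growth of the fetus and placenta. In mouse, Ndn, Igf2, Peg3, Mest and Sgce are expressed from the paternal copy, while Igf2r and Cdkn1c are expressed from the maternal copy, as is Grb10 in most tissues. Necdin is a MAGE-family protein that holds cells out of the cell cycle, IGF-II is a growth factor that signals through the IGF1 receptor, and IGF2R binds IGF-II and delivers it to lysosomes. GRB10 is an adaptor that dampens insulin and IGF receptor signalling, and CDKN1C (p57) is an inhibitor of cyclin-dependent kinases. PEG3 is a zinc finger protein, MEST resembles alpha/beta hydrolases, and SGCE (epsilon-sarcoglycan) is a membrane protein of the dystrophin-associated complex. The parental copy that gave rise to each transcript was not measured.

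All 18 poly-A RNA libraries came from HO15.19, a line of Rat1 fibroblasts in which both copies of the rat Myc gene are inactivated, in 6 groups of 3. The cells that carried human MYC had received it by viral infection as stable lines, so a MYC group rests on the infected line it was made from. Where siRNA was used, it was given at 40 nM and cells were collected 48 h later. A 6-library set held myc-/- cells with a control siRNA (myc-/- siCtrl) and myc-/- + MYC cells, while a 12-library set held untransfected myc-/- cells and myc-/- + MYC cells with siCtrl, siAHR-2 or siAHR-5, 2 siRNAs against Ahr. In both MYC comparisons the transfection label changed together with MYC, so the contributions of the introduced gene and of transfection cannot be told apart. No label says that replicates were separate cultures, so p-values measure only the spread between these samples, which may be technical.

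Values were deposited on a log2 scale, and the 2 sets stood on different scales, so levels were compared only within a set. On the Ahr row, the siCtrl libraries of the 12-library set lay at log2 values of 13.22 to 13.34, siAHR-2 at 11.97 to 12.03 and siAHR-5 at 11.76 to 11.95. The rat Myc row gave log2 values of 9.16 to 9.47 without and 8.01 to 8.08 with MYC in the 6-library set, and 10.82 to 10.94 against 8.16 to 8.27 in the 12-library set. Whether reads of the human transgene were counted on that row was not tested. Of 10 fibroblast markers, all 10 were in the table, with Vim and Fn1 among the high rows, whereas Col1a2, which encodes a chain of collagen I, was low, with mean log2 values of 4.02 in the 6-library set and 3.68 in the 12-library set. A gene was called when it changed at least 1.5-fold (a log2 difference of 0.585) with an adjusted p of at most 0.01 in limma over all 13188 genes.

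The promoters of the members on which the results turned are shown first, as the 250 bases before the start in RefSeq's GRCr8 annotation, printed 5′ to 3′ on the strand of the gene. RefSeq entries were matched for 7 of the 8 members by symbol, with 2 starts for Igf2, and none was matched for Cdkn1c. Capitals mark the MYC/MAX E-box CACGTG, which reads the same on both strands, and the AHR core GCGTG, which is CACGC on the opposite strand. The 2 motifs do not overlap in these windows. Ndn lies at chr1:125260809-125261058 (plus strand), the starts of Igf2 at chr1:207253981-207254230 and chr1:207250476-207250725 (minus strand), and Igf2r at chr1:50526628-50526877 (plus strand). Ndn and Igf2 are shown because they fell furthest with MYC, and Igf2r because it was the member whose siAHR-2 libraries stood apart.
Ndn: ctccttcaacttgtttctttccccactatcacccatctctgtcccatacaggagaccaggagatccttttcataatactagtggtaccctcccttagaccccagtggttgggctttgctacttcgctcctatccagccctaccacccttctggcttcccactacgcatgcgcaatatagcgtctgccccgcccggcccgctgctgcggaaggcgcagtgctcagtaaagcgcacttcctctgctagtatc
Igf2 start 1: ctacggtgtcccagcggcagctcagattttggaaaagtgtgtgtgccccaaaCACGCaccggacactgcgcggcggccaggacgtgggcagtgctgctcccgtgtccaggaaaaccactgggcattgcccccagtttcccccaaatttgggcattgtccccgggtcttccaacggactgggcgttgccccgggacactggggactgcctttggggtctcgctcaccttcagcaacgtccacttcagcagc
Igf2 start 2: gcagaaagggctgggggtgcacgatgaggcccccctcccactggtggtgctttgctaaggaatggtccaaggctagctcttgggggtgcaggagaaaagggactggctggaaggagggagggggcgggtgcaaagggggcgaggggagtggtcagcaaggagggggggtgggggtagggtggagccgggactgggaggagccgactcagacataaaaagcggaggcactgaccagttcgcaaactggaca
Igf2r: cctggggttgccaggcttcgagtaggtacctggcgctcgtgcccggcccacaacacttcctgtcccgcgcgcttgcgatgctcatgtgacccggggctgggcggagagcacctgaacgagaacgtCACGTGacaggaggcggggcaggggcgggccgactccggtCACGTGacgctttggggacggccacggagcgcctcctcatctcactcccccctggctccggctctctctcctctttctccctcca

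Neither motif was present in the Ndn window, which had 10 CpG dinucleotides and a GC content of 55.2%, beside a median of 5 CpG dinucleotides and 51.2% GC over 33469 rat promoters of this length. Igf2 start 1 held 1 AHR core, 198 bases before the start, and start 2 held neither motif. The Igf2r window held 2 E-boxes, 125 and 85 bases before the start, and no AHR core. An E-box was present in 5.59% of all promoters and in 7.66% of the 10312 promoters of genes in the table, and an AHR core in 25.9% and 42% of them. Of the windows that are not shown, Grb10 held 2 AHR cores, Sgce 3 and Peg3 1, and Mest held neither motif. A match describes these letters and is not evidence of binding, and its absence says only that the letters are not in this window.

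The first question was how the members differed between cells with and without MYC. Ndn stood at log2 values of 12.58, 12.52 and 12.56 in the myc-/- siCtrl libraries and at 7.84, 7.90 and 7.91 in the myc-/- + MYC libraries. In the 12-library set, Ndn stood at 10.96, 11.00 and 10.92 in myc-/- cells and at 6.58, 6.57 and 6.61 in myc-/- + MYC siCtrl cells. Every library with MYC was below every library without it in both sets, and such separation was common, since the groups did not overlap for 78.8% of all genes in the 6-library set and 70.5% in the 12-library set. The group means in the 6-library set were 12.55 ± 0.0333 (SD, n = 3) and 7.88 ± 0.0371 (SD, n = 3), a log2 difference of -4.67 or 25.5-fold lower with MYC. In the 12-library set the difference was -4.38, or 20.8-fold lower. Ranked from the most negative difference, Ndn was number 2 of 13188 genes in the 6-library set and number 42 in the 12-library set. A floor of the row, described below, may bound these sizes and was not tested.

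**Figure D1:**
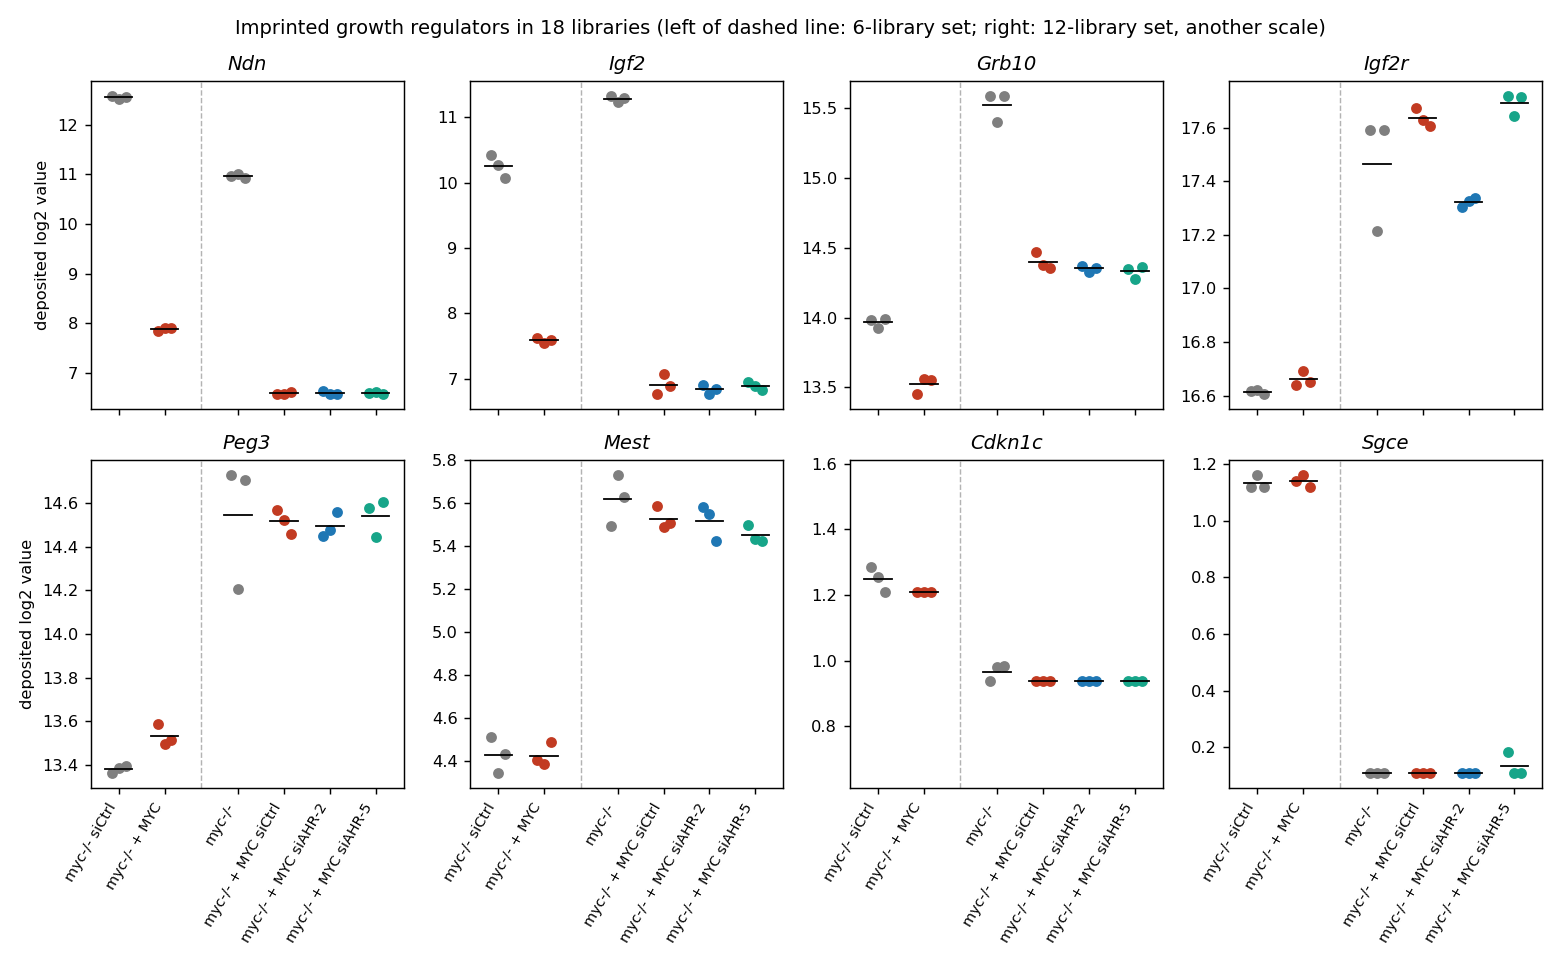
Deposited log2 value of each member in each of the 18 libraries, by group, with a bar at the group mean of 3 libraries. The 3 libraries with MYC in the 6-library set and the 9 in the 12-library set sit below the libraries without MYC for Ndn and Igf2, while Igf2r, Peg3 and Mest stay near the level of their own set.

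Igf2, the paternally expressed growth factor, was the other member with a large difference. Its log2 values were 10.42, 10.26 and 10.07 in myc-/- siCtrl cells and 7.63, 7.55 and 7.59 in myc-/- + MYC cells. They were 11.32, 11.23 and 11.29 in the myc-/- cells of the 12-library set and 6.77, 7.07 and 6.89 in its myc-/- + MYC siCtrl cells. The groups did not overlap in either set, as for most genes of the table. Igf2 fell by 2.66 on the log2 scale in the 6-library set (SE 0.0836, limma adjusted p = 1.56e-10), which is 6.33-fold. It fell by 4.37 in the 12-library set (SE 0.0861, limma adjusted p = 4.59e-07), which is 20.7-fold and put it at number 43 of all genes, next to Ndn at number 42.

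Grb10, the adaptor that dampens insulin and IGF signalling, was lower with MYC in both sets but by less. Its log2 values were 13.98, 13.93 and 13.99 in myc-/- siCtrl cells and 13.45, 13.56 and 13.55 in myc-/- + MYC cells. They were 15.59, 15.40 and 15.59 in the myc-/- cells of the 12-library set and 14.47, 14.37 and 14.35 in its myc-/- + MYC siCtrl cells. The groups did not overlap in either set here too. The log2 difference was -0.44 in the 6-library set (SE 0.0366, limma adjusted p = 5.40e-07), short of the 1.5-fold cutoff, and Grb10 was not called there. With quantile normalization that difference was -0.27. In the 12-library set Grb10 was called and fell by 1.13 (SE 0.0630, limma adjusted p = 2.11e-05), or 2.19-fold.

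The sizes of the Igf2 and Grb10 differences were not alike in the 2 sets. In 1 limma fit of the 4 groups, the MYC difference in the 12-library set minus that in the 6-library set was -1.71 for Igf2 (SE 0.126, adjusted p = 2.83e-08) and -0.68 for Grb10 (SE 0.0739, adjusted p = 1.83e-06). Both passed the call, as did 16.5% of all genes. For Ndn the same quantity was 0.29, given as a description.

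Igf2r, whose product clears IGF-II, lay at log2 values of 16.62, 16.62 and 16.60 in myc-/- siCtrl cells and 16.64, 16.69 and 16.65 in myc-/- + MYC cells. In the 12-library set it lay at 17.59, 17.21 and 17.59 in myc-/- cells and 17.67, 17.63 and 17.61 in myc-/- + MYC siCtrl cells. The second myc-/- library of the 12-library set was the low one. The log2 difference was 0.05 in the 6-library set (SE 0.0273, limma adjusted p = 0.135) and 0.17 in the 12-library set (SE 0.109, adjusted p = 0.217), or 0.05 in the latter without that library, and neither passed the call.

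Peg3, a zinc finger gene, showed the same low library, with log2 values of 14.73, 14.21 and 14.70 in myc-/- cells and 14.57, 14.52 and 14.46 in myc-/- + MYC siCtrl cells. Its log2 difference in the 12-library set was -0.03 (SE 0.145, limma adjusted p = 0.885), and without that library it was -0.20 (adjusted p = 0.00565), below the fold cutoff. In the 6-library set the myc-/- siCtrl values of 13.36, 13.39 and 13.40 lay just below the myc-/- + MYC values of 13.59, 13.50 and 13.52. This gave a log2 difference of 0.15 (SE 0.0323, limma adjusted p = 0.00128), also below the fold cutoff. With quantile normalization Peg3 differed by 0.30 in the 6-library set and by 0.0889 in the 12-library set. Median centring gave 0.0118 in the 12-library set, and none of these passed the call.

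Mest lay at log2 values of 4.34 to 4.51 without MYC and 4.38 to 4.49 with it in the 6-library set, and at 5.49 to 5.73 and 5.49 to 5.59 in the 12-library set, so the ranges overlapped in both. Its log2 differences were 0.00 (limma adjusted p = 0.941) and -0.09 (adjusted p = 0.290), the latter -0.15 without myc-/- replicate 1 and -0.03 without replicate 2. Cdkn1c, the cell cycle inhibitor, lay between 1.21 and 1.29 in every library of the 6-library set and between 0.94 and 0.98 in every library of the 12-library set. Sgce lay between 1.12 and 1.16 in the 6-library set and at 0.11 in 11 of the 12 other libraries, with 0.18 in siAHR-5 replicate 1. Cdkn1c and Sgce were thus at one low value in most libraries of the 12-library set, and a difference between groups was not detectable for them at that level.

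Of the 7 members other than Ndn, 1 was called in the 6-library set (Igf2, lower) and 2 in the 12-library set (Igf2 and Grb10, both lower). Over all genes, 26.8% were called in the 6-library set, 14.3% lower and 12.5% higher, and 25.5% in the 12-library set, 14.7% lower and 10.8% higher. With 7 members, counts of 1 and 2 lie near these shares.

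**Figure D2:**
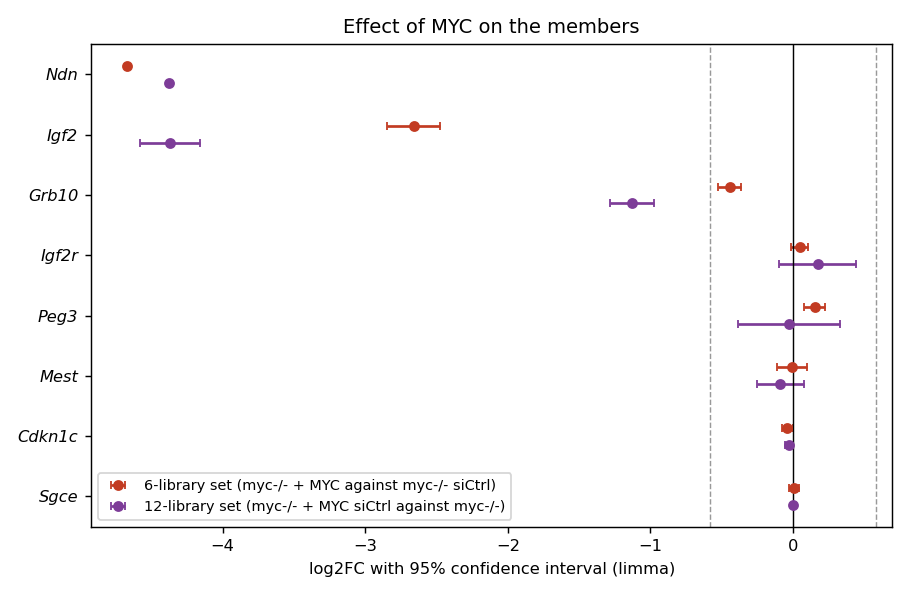
Log2 difference with MYC against without for the 8 members, in the 6-library set and the 12-library set, with the 95% confidence interval from limma, and dashed lines at the 1.5-fold cutoff. Ndn has no interval because it was chosen on this difference, and Igf2 lies past the cutoff in both sets while Grb10 lies past it in the 12-library set.

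Markers of the cell type also moved with MYC. Of the 10 fibroblast markers, 5 were lower and 1 was higher in the 6-library set, and 6 were lower in the 12-library set. Their summed level, as the log2 of the summed linear values, was 20.82 to 20.83 in myc-/- siCtrl and 19.90 to 19.99 in myc-/- + MYC libraries. It was 21.95 to 22.18 in the myc-/- and 20.23 to 20.25 in the myc-/- + MYC siCtrl libraries of the 12-library set. Of the fibroblast markers in the table, Col1a2 was the low one. Its mean was 3.64 with siCtrl, siAHR-2 and siAHR-5 alike, with SDs of 0.000376, 0.000667 and 0.000533. Rows of this table can have a lowest value above 0, so whether Col1a2 was detected in those libraries was not tested. The part of the fibroblast markers in the fall of Ndn and Igf2 was not tested. In bulk RNA, fewer cells of a type and less RNA per cell cannot be told apart.

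The low values of Ndn were close to each other. Over the 9 MYC libraries of the 12-library set, Ndn ranged from 6.56 to 6.62 on the log2 scale with an SD of 0.0227, beside a median SD of 0.112 for 524 genes whose mean in those libraries was within 0.5 of it. In the 3 MYC libraries of the 6-library set its SD was 0.0371, beside a median of 0.0790 for 506 such genes. Igf2 had an SD of 0.0933 over the 9 libraries, beside a median of 0.125 for 497 genes. Zim1, an imprinted neighbour of Peg3 that is described below, lay between 6.16 and 6.18 in these 9 libraries with an SD of 0.00787, beside a median of 0.0928 for 534 genes. Many rows of the table end at a lowest value of their own. Over the 9 MYC libraries of the 12-library set, Ndn followed the library order of Cdkn1c, apart from a tie in Cdkn1c. Both were highest in siAHR-2 replicate 1 (6.62 and 0.93839) and lowest in siAHR-5 replicate 3 (6.56 and 0.93822). The SDs with siCtrl, siAHR-2 and siAHR-5 were 0.0183, 0.0322 and 0.0262 for Ndn and 0.00634, 0.0112 and 0.00903 for Zim1. Whether Ndn or Zim1 with MYC was at such a floor, which would shrink the fold, was not tested. Their 12-library falls may thus be limits and not measured sizes.

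The next question was whether lowering Ahr in MYC cells changed the members. Ndn lay at log2 values of 6.62, 6.56 and 6.57 with siAHR-2 and 6.59, 6.61 and 6.56 with siAHR-5. Both ranges overlapped the siCtrl values of 6.58, 6.57 and 6.61. The 95% interval of the log2 difference from siCtrl was -0.0748 to 0.0743 for siAHR-2 (limma adjusted p = 1) and -0.0729 to 0.0744 for siAHR-5 (adjusted p = 0.999). Ordered by level, myc-/- cells were highest for Ndn, and the 3 MYC groups each had a mean of 6.59. If the row is at its floor in these libraries, a further fall of Ndn with either siRNA could not be seen. The narrow intervals would then describe the floor and not the expression of Ndn, so no conclusion on Ahr and Ndn is drawn from them.

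Igf2 lay at 6.91, 6.76 and 6.85 with siAHR-2 and 6.95, 6.89 and 6.84 with siAHR-5, overlapping the siCtrl libraries. The log2 difference was -0.07 for siAHR-2 (95% interval -0.287 to 0.143, limma adjusted p = 0.591) and -0.02 for siAHR-5 (95% interval -0.223 to 0.189, adjusted p = 0.927).

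Igf2r was the member in which an siRNA group stood apart. Its log2 values were 17.67, 17.63 and 17.61 with siCtrl, 17.30, 17.32 and 17.34 with siAHR-2, and 17.72, 17.64 and 17.71 with siAHR-5. The siAHR-2 libraries were below all the others with MYC, while siAHR-5 overlapped siCtrl. Over all genes the groups did not overlap for 43.3% with siAHR-2 against siCtrl and 49.5% with siAHR-5 against siAHR-2. Igf2r was 0.31 lower on the log2 scale with siAHR-2, a difference of -0.31 (SE 0.0220, 95% interval -0.370 to -0.259, limma adjusted p = 8.38e-04). For this difference the limma adjusted p was 0.0137 with all libraries of the set in 1 fit (SE 0.0798) and 0.0158 with the replicate block, both above 0.01. Quantile normalization gave a smaller difference of -0.22. With siAHR-5 the difference was 0.05 (95% interval -0.0217 to 0.131, adjusted p = 0.219), which became 0.21 with quantile normalization (limma adjusted p = 0.00434), and siAHR-5 minus siAHR-2 was 0.37 (SE 0.0247, 95% interval 0.308 to 0.431, adjusted p = 3.22e-04). None of these reached the 1.5-fold cutoff, and siAHR-2 and siAHR-5 were both compared with the same 3 siCtrl libraries.

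**Figure D3:**
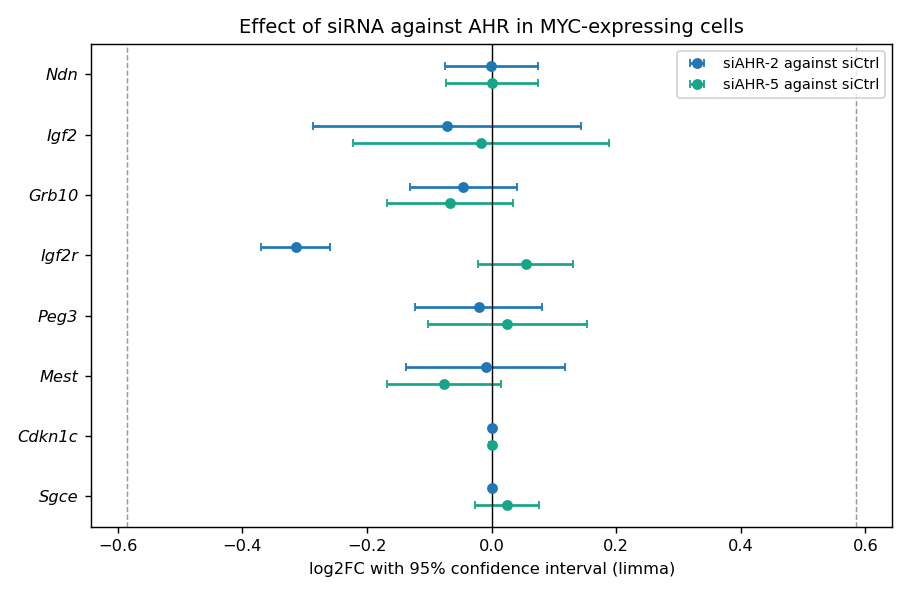
Log2 difference from the siCtrl libraries for the 8 members with siAHR-2 and with siAHR-5 in MYC cells, with the 95% confidence interval from limma. The members sit near 0 except Igf2r with siAHR-2, at -0.31.

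No member was called with either siRNA by limma, 0 of 8 in each comparison. Over all genes 0.47% were called with siAHR-2, 2.32% with siAHR-5 and 2.18% between the siRNAs. At an unadjusted p under 0.05, limma picked out 1 member with siAHR-2 (Igf2r), 0 with siAHR-5 and 1 between the siRNAs (Igf2r), where 40.4%, 47.8% and 46.8% of all genes passed.

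Imprinted genes lie in clusters, and 71 other imprinted genes were listed, of which 42 were in the table. With MYC, 12 of the 42 were called lower and 2 higher in the 6-library set, and 12 lower and 2 higher in the 12-library set, which is 33.3% in each, beside the 26.8% and 25.5% of all genes. Their median log2 difference was -0.15 in the 6-library set and -0.09 in the 12-library set, where the median of all genes was -0.0038 and -1e-04. Of these genes, 10 were lower and 2 were higher in both sets, and none was called in opposite directions. No share of all genes called alike in both sets is given here, so these counts are a description. In the clusters of the members, 23 of 45 listed genes were in the table, with 8 lower and 1 higher in the 6-library set and 7 lower and 1 higher in the 12-library set. Elsewhere in the genome 19 of 26 were, with 4 lower and 1 higher and then 5 lower and 1 higher. None of the 42 was called with siAHR-2, with siAHR-5 or between them by limma. An unadjusted p under 0.05 was found for 12, 21 and 16 of them, beside 40.4%, 47.8% and 46.8% of all genes.

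Zim1, Peg12 and Sfmbt2 had the most negative differences of this list. Peg12, a paternally expressed gene of the Ndn cluster, fell by 1.82 on the log2 scale in the 6-library set (SE 0.0673, limma adjusted p = 6.08e-10) and fell by 2.03 in the 12-library set (SE 0.0439, adjusted p = 6.40e-07). Its libraries ranged from 9.04 to 9.31 with MYC beside 10.96 without in the 6-library set, and from 10.48 to 10.60 beside 12.56 to 12.61 in the 12-library set. Sfmbt2, a polycomb-group gene, had log2 differences of -1.60 and -1.98 in the 2 sets, both past the call. Zim1, a zinc finger gene beside Peg3 that is maternally expressed in mouse, fell by 2.72 in the 6-library set (SE 0.0669, limma adjusted p = 2.35e-11) and fell by 1.77 in the other (SE 0.152, adjusted p = 1.28e-04), where its 9 MYC libraries lay within 6.16 to 6.18.

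Asb4, a SOCS-box gene of the Sgce cluster, moved furthest the other way. It lay at log2 values of 6.48 to 6.63 without and 10.46 to 10.67 with MYC in the 6-library set, and at 8.48 to 8.61 against 12.13 to 12.26 in the 12-library set. It was 3.98 higher on the log2 scale with MYC in the 6-library set (SE 0.0732, limma adjusted p = 2.61e-12) and 3.65 higher in the 12-library set (SE 0.0573, adjusted p = 2.18e-07). Impact, a regulator of translation through GCN2, was the other gene called higher in both sets, by 0.64 and 1.04.

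**Figure D4:**
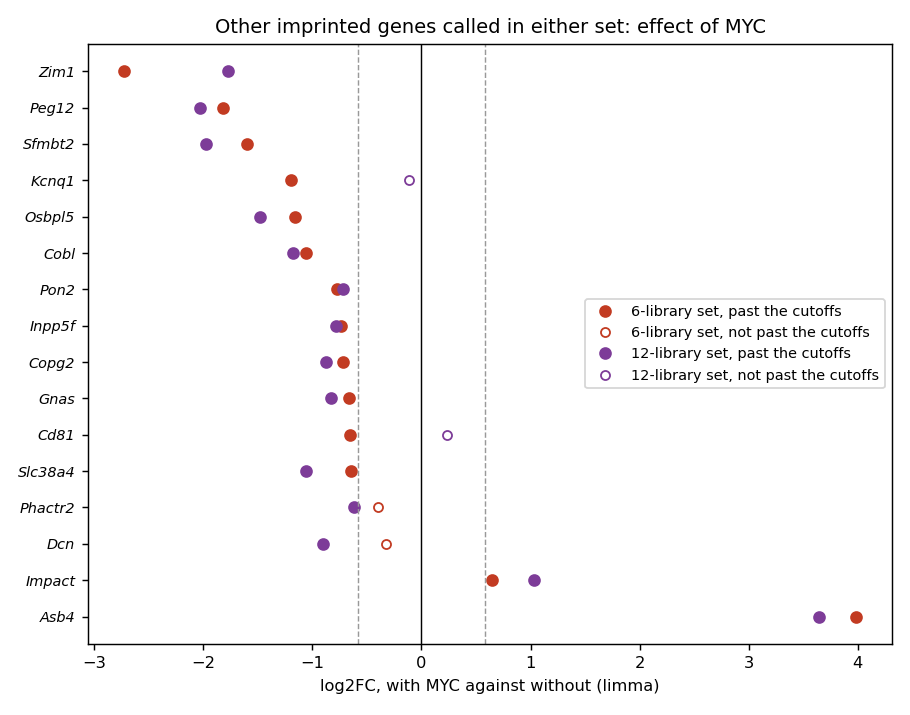
Log2 difference with MYC against without for the 16 other imprinted genes of the table that were called in the 6-library set or the 12-library set, with filled points past the call and dashed lines at the 1.5-fold cutoff. Zim1, Peg12 and Sfmbt2 lie furthest to the left, and Asb4 furthest to the right.

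The nearest gene of the table on each side of a member was found by RefSeq gene order. Of these 16 genes, Peg12, Zim1, Copg2 and Cobl were called lower with MYC in both sets and Kcnq1 in the 6-library set, and none was called higher, beside 14.3% of all genes called lower and 12.5% higher in the 6-library set and 14.7% and 10.8% in the 12-library set. Beside Ndn, Peg12 fell in both sets, and Ube3a, separated from Ndn by 379 genes that are not in the table, had log2 differences of 0.13 and 0.11. Beside Peg3, Zim1 fell and Usp29 had log2 differences of -0.20 and -0.26, which did not pass the call. Beside Mest, which did not pass, Copg2, a coatomer subunit gene, passed the call with log2 differences of -0.72 and -0.88, and Cep41 had log2 differences of 0.01 and -0.15. Beside Grb10, Cobl, an actin nucleator gene, had log2 differences of -1.06 and -1.18 and passed the call, and Ddc had log2 differences of 0.02 and 0.00. Beside Igf2, Mrpl23 had log2 differences of 0.00 and -0.55, and Th lay at -0.08 and 0.00. Beside Igf2r, Mas1 had log2 differences of 0.03 and 0.07. Beside Cdkn1c, Kcnq1 fell by 1.19 in the 6-library set and lay at -0.12 in the 12-library set, while Slc22a18 lay at -0.01 and -0.37. Beside Sgce, Col1a2 had log2 differences of -0.13 and -0.16 and Ppp1r9a had 0.44 and 0.21, none of which passed. Whether reads were counted by strand is not given in the sources used here, so reads of overlapping neighbours may not be told apart.

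Igf2, Igf2r and Grb10 act in 1 pathway, and of 16 other genes of the IGF axis 14 were in the table. With MYC, 5 were called lower and 1 higher in the 6-library set, with a median log2 difference of -0.34, and 5 were lower and 0 higher in the 12-library set, with a median of -0.43. Over all genes 14.3% were called lower and 12.5% higher in the 6-library set, and 14.7% and 10.8% in the 12-library set. Igfbp7, an IGF-binding protein gene, fell by 2.89 in the 6-library set (SE 0.0349, limma adjusted p = 1.64e-13) and fell by 3.99 in the 12-library set (SE 0.0525, adjusted p = 1.74e-07). Irs2, an adaptor downstream of the insulin and IGF receptors, passed the call with log2 differences of -1.27 and -1.21, as did Igfbp5 with -0.88 and -1.35. Igfbp1 fell by 1.93 in the 6-library set and had a log2 difference of 0.02 in the 12-library set. In the latter it lay at 3.18 to 3.22 without and 3.18 to 3.25 with MYC, near one low value at which a fall may not be visible. Igf1r, the receptor through which IGF-II signals, had log2 differences of -0.13 (limma adjusted p = 0.0561) and -0.30 (adjusted p = 0.0912). No gene of this list was called with siAHR-2 or siAHR-5, 0 of 14 in each.

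The genes whose pattern was most like that of Ndn were found by the Euclidean distance over 4 log2 differences, namely MYC in each set and each siRNA, among the 12932 genes whose log2 values averaged 1 or more. The nearest 5 were Tnfrsf21 at a distance of 0.80, Serpine2 at 0.86, Mmp2 at 0.90, Myo7b at 0.96 and Adgrl3 at 1.07. Tnfrsf21, a death receptor gene, had log2 differences with MYC of -4.16 and -4.97. Igf2 was number 55 in this order, at 2.01, and Grb10 was number 1273. The distances rest on the same libraries, including the siCtrl libraries shared by 3 of the 4 differences, and are a description.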

How the data were processed

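Poly-A RNA of rat HO15.19 fibroblasts was extracted and sequenced by GENEWIZ. The authors assessed the reads with NGS-QC-Toolkit, aligned them with HISAT2 2.1.0 to rn6, removed genes with under 10 reads in all and normalized with DESeq2. The read counter and annotation are not given in the sources used here. The deposited values are on a log2 scale and are labelled log CPM, but their linear totals are 86.3 to 161 times a CPM total, so the depth per library is unknown and no interval for counting error could be given. Each of the 18 columns was tied to its sample by name.

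The deposited log2 values were tested with limma 3.58.1 (R 4.3.3, lmFit and eBayes with trend), fitted to the groups compared only, with Benjamini-Hochberg adjustment over 13188 genes. Genes were called at 1.5-fold or more and an adjusted p of at most 0.01. Fold changes are on the deposited scale, and whether it shrinks the change of low genes was not tested. The procedure was also run on simulated data, but the outcome is not given here and no result rests on it. Figures and promoter searches used Python 3.11.15, pandas 2.3.3 and matplotlib 3.10.9.

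The members and the gene lists were chosen with earlier results of these data known. Named were all members, up to 4 called genes of largest size from each companion list (other imprinted genes, IGF axis, MAGE family, CIP/KIP inhibitors, sarcoglycan partners, imprint maintenance, necdin partners), the 5 genes most like Ndn, the nearest genes of the table beside each member, and Myc and Ahr. A neighbour of Igf2r is not reported here. Impact and Igf1r were named beyond this rule, after their values were seen. Markers of fibroblasts, epithelium, neurons, endothelium, immune cells and skeletal muscle were also examined. Alternatives were an FDR below 5% with no fold cutoff, no trend, quantile normalization, median centring, a filter at a mean log2 value of 1, a pseudocount of 1, all libraries of the set in 1 fit, a replicate block and leaving out each library. The counts of other imprinted genes under these were added after seeing the data.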

Additional observations from a re-analysis of the deposited data

Results flagged for a closer look

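Igf2 and Grb10 were picked out because their MYC effect differed between the 2 sets of libraries by a test of the difference itself. Igf2 had a log2 difference of -2.66 in the 6-library set and -4.37 in the 12-library set, and the difference between them was -1.71 (limma, SE 0.126, adjusted p = 2.83e-08). Grb10 had -0.44 and -1.13, and the difference between them was -0.68 (limma, SE 0.0739, adjusted p = 1.83e-06). In each set all 3 libraries with MYC were below all 3 without it for both genes, a separation between groups that 78.8% of all genes had in the 6-library set and 70.5% in the 12-library set. The sets also differ in scale and in which side of the comparison was transfected, and the part of these was not tested.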

How the results depend on the processing

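The number of members called kept its value under every alternative run except the FDR below 5% with no fold cutoff, which gave 3 of 7 members with MYC in the 6-library set (Grb10 and Peg3 joined Igf2), 1 of 8 with siAHR-2 and 1 of 8 between the siRNAs (Igf2r in both). That cutoff also gave 25 lower and 8 higher other imprinted genes in the 6-library set, and 20 lower and 7 higher in the 12-library set. The cause is the cutoff itself, under which 10051 of 13188 genes passed in the 6-library set, 8538 in the 12-library set, 3860 with siAHR-2 and 5151 between the siRNAs. Some small differences changed sign without passing the call. Peg3 in the 12-library set came to 0.0889 on the log2 scale with quantile normalization and 0.0118 with median centring. Ndn with siAHR-5 came to -0.0970 and -0.0590 under the same settings, and Igf2r with siAHR-5 to -0.00489 with median centring but 0.21 (limma adjusted p = 0.00434) with quantile normalization. Quantile normalization also moved Peg3 in the 6-library set from 0.15 to 0.30, Grb10 there from -0.44 to -0.27, Igf2r there from 0.05 to 0.09 (limma adjusted p = 0.00651, and 0.00489 on the log2 scale with median centring) and Igf2r with MYC in the 12-library set from 0.17 to 0.35 (limma adjusted p = 0.0350), none past the call. Igf2 with siAHR-5 moved from -0.02 to -0.13 with quantile normalization and to -0.08 with median centring, and with siAHR-2 from -0.07 to -0.11 and -0.10. Under the same settings Mest came to -0.03 and -0.05 in the 6-library set. In the 12-library set Mest moved from -0.09 to -0.01 and -0.05, and none of these passed the call. Igf2r with siAHR-2 moved from -0.31 to -0.22 with quantile normalization and to -0.35 with median centring, neither past the call. The cause of these moves was not tested.

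Leaving out each library in turn, Mest in the 6-library set ranged from -0.0474 to 0.0367 and in the 12-library set from -0.152 to -0.0319, Peg3 in the 12-library set from -0.201 to 0.0605, Ndn with siAHR-2 from -0.0188 to 0.0101 and with siAHR-5 from -0.0115 to 0.0145, and Igf2 with siAHR-2 from -0.140 to 0.00666 and with siAHR-5 from -0.0852 to 0.0616. Igf2 with MYC ranged from -2.75 to -2.58 in the 6-library set and from -4.45 to -4.30 in the 12-library set, and Ndn from -4.69 to -4.65 and from -4.40 to -4.36. With the replicate block the number of members called was 1, 2, 0, 0, 0 and 2 in the 6 comparisons, as without it, and the lower imprinted genes numbered 12 and 11. Over all genes the block moved the siAHR-2 calls from 62 to 0. Replicate numbers did not pair the samples, since no comparison had all 3 correlations above 0.1 (range -0.256 to 0.242), and 0, 1, 2, 4 and 4 of 6 libraries correlated best with their own number.

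Depth per library is unknown, so differences in the lowest rows, Cdkn1c and Sgce among them, could not be resolved here.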

Other observations

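Other gene groups around the members were mixed, and their counts with MYC stand beside 26.8% of all genes called in the 6-library set and 25.5% in the 12-library set. Of 11 genes whose products are known partners of necdin, 9 were in the table, with 1 called higher and 3 lower with MYC in the 6-library set and 1 higher and 2 lower in the 12-library set (limma). Msx1, a homeobox gene, was lower in both sets, with log2 differences of -2.05 and -2.65. Its means in MYC cells with siCtrl, siAHR-2 and siAHR-5 were each 6.56, and whether a floor of the row bounds the 12-library difference was not tested. Ngfr, the p75 neurotrophin receptor gene, fell by 2.16 in the 6-library set and had a log2 difference of -0.04 in the 12-library set. Dlx2 fell by 0.86 in the 12-library set, and E2f4 was 0.76 and 0.64 higher. Bmi1, a polycomb gene, fell by 0.78 with siAHR-5 and had a log2 difference of -0.04 with siAHR-2 (limma adjusted p = 0.471). Of 12 MAGE-family genes 4 were in the table, with 1 called lower in the 6-library set (Maged2, by 0.61) and 0 in the 12-library set.

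Both other CIP/KIP inhibitors of the table, the paralogs of Cdkn1c, had levels that allowed a test. Cdkn1a (p21) fell by 2.33 in the 6-library set and by 0.59 in the 12-library set, and was 1.07 higher with siAHR-5 (limma adjusted p = 2.26e-04), beside a log2 difference of 0.04 with siAHR-2 (adjusted p = 0.512). Cdkn1b (p27) was 0.60 higher in the 6-library set and had a log2 difference of 0.02 in the 12-library set. Of 9 sarcoglycan partners 8 were in the table, with 1 higher and 3 lower in the 6-library set and 1 higher and 2 lower in the 12-library set. Dag1, the dystroglycan gene, was lower in both sets at -0.84 and -0.79, and Dmd, the dystrophin gene, was 0.76 and 0.71 higher. Sgca and Sspn were called lower at -1.57 and -1.09 in the 6-library set, with log2 differences of 0.07 and -0.11 in the 12-library set. In the latter Sspn lay at 4.09 to 4.22 without MYC and at 4.04 with MYC and siCtrl, where a larger fall may not be visible. Of 10 genes that set or keep imprints 8 were in the table, with 2 higher in the 6-library set and 1 in the 12-library set. Arid4a was 1.16 and 0.77 higher, and Zfp57, a zinc finger gene that guards imprints, was 0.77 higher in the 6-library set and had a log2 difference of 0.29 in the 12-library set.

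Markers of other cell types were few. With MYC, 1 of 4 epithelial markers in the table was higher in each set (Krt8, by 1.70 and 1.17), 1 of 4 endothelial markers was higher in the 6-library set (Tek, by 1.61) and 0 in the 12-library set, and 0 of 3 neuronal markers was called in either. In each set 1 of 3 immune markers was lower (Cd3e, at -2.09 and -1.13), as was the 1 skeletal muscle marker in the table (Des, at -1.29 and -1.14).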
